A study of Mus musculus with 18 samples.

Results

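Irx1, Irx2, Irx3 and Irx5 are Iroquois homeobox genes, and each was read by 1 probe set whose platform symbol is exactly that name: 1451983_at for Irx1, 1426298_at for Irx2, 1418517_at for Irx3 and 1421072_at for Irx5. These are 4 of 45037 probe sets on the array (4 of 18193 genes with a probe set of 1 symbol), and all 4 were among the 27022 left after the dimmest 40% were dropped. Irx5 was chosen by its measured signal, which was higher in the hypertrophic than in the resting/proliferating zone, and the other members are its paralogues. The hypertrophic against resting/proliferating values are therefore a description with no test, in either treatment and for every member.

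Iroquois proteins are DNA-binding transcription factors of the TALE class of homeodomain proteins, and they lie in the mouse genome in a pair of clusters that arose by duplication. On the GRCm38.p6 assembly Irx1, Irx2 and Irx4 lie on chromosome 13, and Irx3, Irx5 and Irx6 on chromosome 8. In the mouse embryo Irx3 and Irx5 act together in early limb bud patterning, and both have been tied to the passage of hypertrophic chondrocytes towards the bone-forming lineage. In a long bone, resting and proliferating chondrocytes stop dividing, enlarge into hypertrophic chondrocytes and give way to mineralized bone, so the zones follow one another along the bone.

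RNA came from tibiae of CD1 mouse embryos of both sexes at E15.5, kept for 6 days as organ cultures in minimal medium. The cultures received C-type natriuretic peptide (CNP, 1e-06 M), a peptide hormone that promotes growth of cartilage, or its vehicle of BSA and HCl (1 mM in the labels), on days 1, 3 and 5. On day 6 the bones were cut into the resting/proliferating (R/P), hypertrophic (H) and mineralized (M) zones, and the pieces of a zone were pooled from the 24 tibiae of a treatment. The groups were CNP R/P, vehicle R/P, CNP H, vehicle H, CNP M and vehicle M, with 3 arrays each, numbered 2, 3 and 4 in the titles. They make 18 arrays from 6 cultures, and the series design calls the trials independent. The array titled vehicle R/P number 4 has a treatment field that reads CNP. It is kept as vehicle, and most differences of the members that rest on it are also given without it. A zone piece holds several cell types, so that fewer cells of a type and less RNA per cell cannot be told apart.

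The deposited signal had a median between 39.3 and 174 over the arrays, and values below are after quantile normalization. The markers of several other cell types moved with the zones. Over 6 arrays a zone, the summed signal of 7 osteoblast and bone markers was 10517 to 14957 in R/P, 18794 to 29453 in H and 28714 to 41932 in M. The 7 osteoclast markers summed to 1684 to 2905 in R/P, 2183 to 7047 in H and 25749 to 29232 in M. The 7 endothelial markers summed to 677 to 1088 in R/P, 491 to 587 in H and 3445 to 4329 in M, and the 7 leukocyte markers to 1362 to 2423, 2081 to 4050 and 15146 to 17007 in the same order. The 7 adipocyte markers summed to 4637 to 6478, 5474 to 7750 and 14372 to 15386. No marker of these lists was at 0 in any group, and the part of these cells in the zone differences of Irx3 and Irx5 was not tested. The 8 perichondrium, tendon and fibroblast markers summed to 23158 to 27380 in R/P, 9925 to 17655 in H and 19851 to 22401 in M. In M against H 6 of the 8 rose with CNP and 3 with vehicle, where 15.9% and 11.6% of all probe sets rose. The 7 hypertrophic chondrocyte markers summed to 8534 to 14405 in R/P, 27182 to 36684 in H and 23715 to 25637 in M. The 9 resting/proliferating markers did not separate H (36680 to 43227) from R/P (27761 to 45298), but were at 8643 to 14856 in M. The 8 skeletal muscle markers summed to 725 to 994 in R/P, 646 to 1415 in H and 388 to 706 in M. In the same order the 5 epidermis markers summed to 618 to 804, 436 to 577 and 510 to 624. The 4 Schwann cell and nerve markers summed to 778 to 1112, 944 to 2260 and 560 to 954. For actin, the signal of the 3' probe set over that of the 5' one, a sign of RNA quality, was 2.55 to 4.85 in CNP R/P and 2.44 to 3.05 in vehicle R/P. It was 2.39 to 3.93 in CNP H and 2.20 to 2.36 in vehicle H, and 1.59 to 1.87 in CNP M and 1.59 to 1.84 in vehicle M; its part was not tested either.

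Irx5, the member with the widest span between zones, had a normalized signal of 94.6, 148 and 188 in CNP R/P arrays 2, 3 and 4, against 101, 101 and 89.5 in vehicle R/P arrays. In the hypertrophic zone it had 1798, 3356 and 2366 in CNP arrays, against 2650.0, 1689.9 and 2757 in vehicle arrays. In the mineralized zone it had 2049, 2140.1 and 2067 in CNP arrays, against 2200.2, 2543 and 1762 in vehicle arrays. Every H and M array lay far above every R/P array, and the H and M arrays overlapped. By group mean the order was CNP H (2507 ± 788), vehicle H (2366 ± 588), vehicle M (2168 ± 392), CNP M (2085 ± 48.2), CNP R/P (143 ± 46.6) and vehicle R/P (97.2 ± 6.65; SD, n = 3 each). The H and M groups overlapped among themselves, and so did the R/P groups.

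Irx3, the cluster neighbour of Irx5, had 257, 169.6 and 276 in CNP R/P arrays, against 172, 129 and 179 in vehicle R/P arrays. It had 805, 919.7 and 1064 in CNP H arrays, against 1117, 777 and 1157 in vehicle H arrays. It had 1453, 1532 and 1451 in CNP M arrays, against 1723, 1608 and 1551 in vehicle M arrays. Its arrays of the 3 zones did not overlap, with M highest and R/P lowest in both treatments. The group means ran from vehicle M (1628 ± 87.6) and CNP M (1479 ± 46.6) through vehicle H (1017 ± 209) and CNP H (929 ± 129.9) to CNP R/P (234 ± 56.5) and vehicle R/P (159.8 ± 27.0; SD, n = 3 each).

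Irx1 and Irx2, the pair on chromosome 13, had no such steps. Irx1 lay between 227 and 299.6 in CNP R/P and between 212 and 288 in vehicle R/P. It lay between 181 and 286 in CNP H and between 176 and 305 in vehicle H, and between 195 and 272 in CNP M and between 132 and 207 in vehicle M. All 6 groups of Irx1 overlapped with at least one other, and the lowest mean was that of vehicle M (180.3 ± 42.3, SD, n = 3). Irx2 was dim, from 75.0 to 134 in CNP R/P, 83.5 to 92.3 in CNP H and 91.3 to 111 in CNP M, against 56.1 to 113, 79.4 to 119 and 70.8 to 110.2 in the vehicle arrays of the same zones. Its groups overlapped in all zones.

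**Figure D1:**
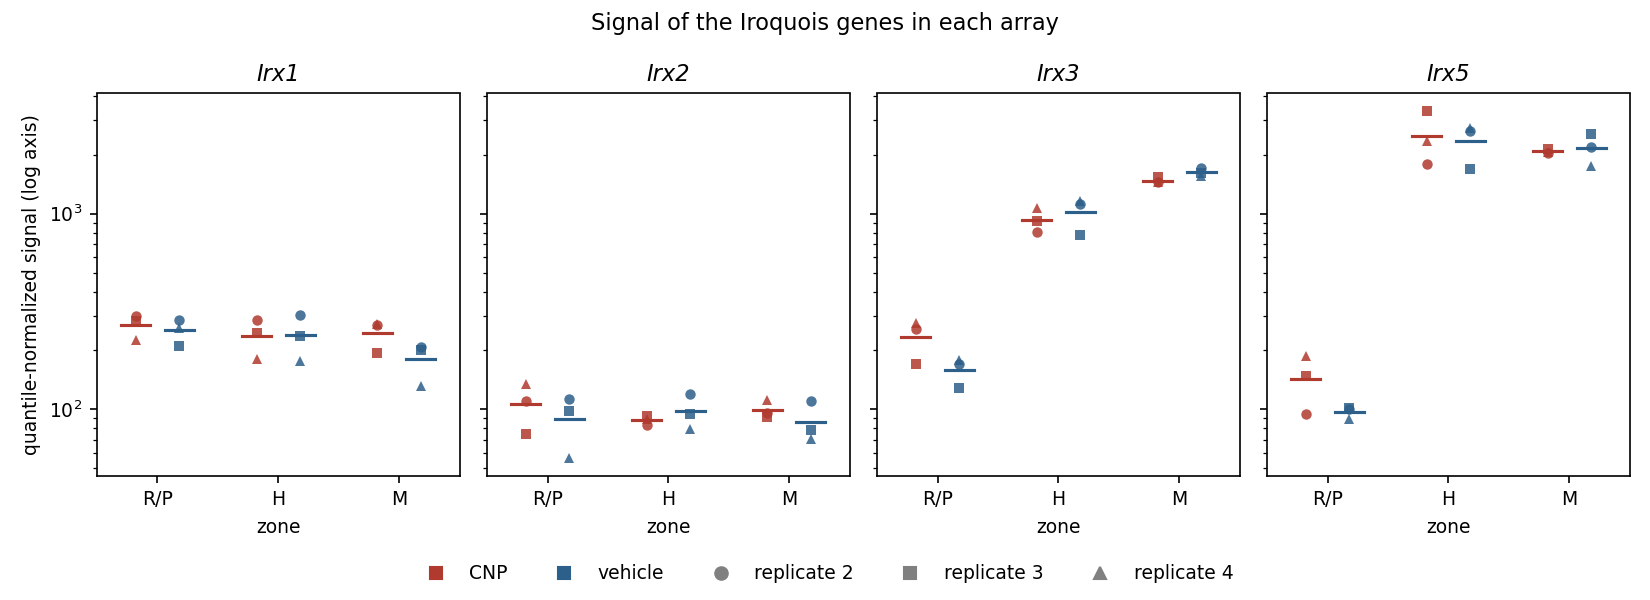
Quantile-normalized signal (log axis) of the 4 genes in the R/P, H and M zones, with CNP arrays left of vehicle arrays, a point for each of the 18 arrays and a bar for each group mean. Irx3 and Irx5 are higher in H and M than in R/P, while Irx1 and Irx2 stay within 132 to 305 and 56.1 to 134.

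Promoter windows were found for 2 of the 4 members. They are those of Irx3, which changed between zones, and Irx2, which did not pass the test, and both are shown. RefSeq gives them on GRCm38.p6 from 250 bases before to 50 bases after the start: Irx3 at chr8:91801605-91801904 on the minus strand, and Irx2 at chr13:72628570-72628869 on the plus strand. Capitals mark CG dinucleotides.
Irx3: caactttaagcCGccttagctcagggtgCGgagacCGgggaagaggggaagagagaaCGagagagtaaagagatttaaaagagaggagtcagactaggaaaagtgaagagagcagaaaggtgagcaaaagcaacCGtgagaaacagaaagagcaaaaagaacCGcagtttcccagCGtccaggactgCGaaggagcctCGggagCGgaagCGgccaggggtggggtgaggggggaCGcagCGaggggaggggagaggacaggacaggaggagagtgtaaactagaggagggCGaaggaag
Irx2: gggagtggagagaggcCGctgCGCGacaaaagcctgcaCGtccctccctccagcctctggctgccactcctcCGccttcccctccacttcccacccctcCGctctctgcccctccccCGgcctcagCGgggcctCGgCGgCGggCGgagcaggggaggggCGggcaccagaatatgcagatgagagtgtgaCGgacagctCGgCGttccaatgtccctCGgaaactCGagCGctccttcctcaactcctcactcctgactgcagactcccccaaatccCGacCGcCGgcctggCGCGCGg
The Irx3 window is 56.0% G and C, with 14 CG dinucleotides and an observed to expected ratio of 0.75. The Irx2 window is 69.0% G and C, with 25 CG dinucleotides and a ratio of 0.72. Matches were sought on both strands for the RUNX motif TGTGGT (in 16.76% of 32851 promoters), the TCF/LEF motif CTTTGAA (5.135%), the GLI motif GACCACCCA (0.2527%), the CRE TGACGTCA (1.79%) and the Iroquois motif ACANNTGT (7.376%). None of these strings is in either window. The GC box GGGCGG, found in 35.66% of promoters, is in the Irx2 window at 2 places, 109 and 93 bases before the start, and in the Irx3 window at 0.

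Between the hypertrophic and the resting/proliferating zone, the contrast that chose Irx5, the mean difference within cultures was 3.98 ± 0.41 with CNP and 4.36 ± 0.45 with vehicle for Irx5 on the log2(signal + 16) scale (SD, n = 3 cultures each), or 15.8-fold and 20.6-fold. On that scale folds of dim genes are understated. Only 19 of 27022 probe sets had a larger rise than Irx5 with CNP and 8 with vehicle. For Irx3 the difference was 1.94 ± 0.37 with CNP and 2.55 ± 0.08 with vehicle, and 306 and 119 probe sets had larger rises. For Irx1 it was -0.18 ± 0.12 with CNP and -0.10 ± 0.38 with vehicle, and for Irx2 -0.20 ± 0.40 with CNP and 0.14 ± 0.23 with vehicle. Without the array of conflicting labels the vehicle differences were 4.32 for Irx5, 2.59 for Irx3, 0.11 for Irx1, whose sign turned, and 0.00602 for Irx2. These are descriptions, and across all probe sets 24.9% passed an adjusted p under 0.05 in this contrast with CNP and 18.6% with vehicle, from which nothing is read for the members.

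The mineralized zone was then set against the resting/proliferating zone. This contrast reuses the R/P arrays that helped to choose Irx5, so Irx5 is described there and the test is given for its paralogues only. Irx5 differed by 3.77 ± 0.44 with CNP (13.6-fold) and by 4.26 ± 0.19 with vehicle (19.1-fold; SD, n = 3 cultures each). Irx3 rose by 2.61 ± 0.17 with CNP (SE; 6.09-fold; limma adjusted p = 2.54e-08) and by 3.24 ± 0.17 with vehicle (9.42-fold; limma adjusted p = 3.03e-09). In all 6 cultures each difference was above 0, from 3.36 to 4.45 for Irx5 and from 2.33 to 3.49 for Irx3, and each culture lay within 1 hybridization day. In CNP cultures 2 and 3 and vehicle culture 4, however, the R/P and M arrays were in different fluidics runs. Without the array of conflicting labels, the vehicle difference was 4.21 for Irx5 and 3.28 for Irx3 (limma adjusted p = 9.72e-08 for Irx3). Among the 3 paralogues 1 rose, where 17.9% of all probe sets rose and 18.8% fell with CNP (36.7% called), and 15.1% rose and 15.7% fell with vehicle (30.9% called). That split depended on the scaling: 4841 rose and 5068 fell with CNP, and 3791 and 1452 without normalization; with vehicle 4091 rose and 4248 fell, and 8053 and 580 without normalization.

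Irx1 did not pass the test in that contrast, at -0.13 ± 0.20 with CNP (limma adjusted p = 0.658) and -0.47 ± 0.20 with vehicle (limma adjusted p = 0.0887; unadjusted p = 0.0323). Its vehicle interval ran from -0.90 to -0.05, and without the array of conflicting labels the vehicle difference was -0.26 (limma adjusted p = 0.451). Irx2 was at -0.06 ± 0.20 with CNP (limma adjusted p = 0.851) and -0.01 ± 0.20 with vehicle (limma adjusted p = 0.968; -0.15 without the array of conflicting labels, limma adjusted p = 0.71), with 95% intervals of -0.50 to 0.37 and -0.45 to 0.42.

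Between the mineralized and the hypertrophic zone, Irx3 was the paralogue that was called. It rose by 0.67 ± 0.17 with CNP (1.59-fold; limma adjusted p = 0.00735) and by 0.69 ± 0.17 with vehicle (1.61-fold; limma adjusted p = 0.00842), and all 6 cultures were above 0, from 0.42 to 1.03. This is 1 of the 3 paralogues in each treatment, where 32.6% of all probe sets were called with CNP (15.9% higher and 16.7% lower) and 23.6% with vehicle (11.6% higher and 12.1% lower). Here 4307 were higher and 4505 lower with CNP, and 5448 and 883 without normalization; with vehicle 3127 were higher and 3259 lower, and 4125 and 528 without normalization. The call was lost without CNP replicate 2 (0.58; limma adjusted p = 0.0536) and, for vehicle, without vehicle replicate 3 (0.52; limma adjusted p = 0.142).

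The H arrays of this contrast are among those that chose Irx5, so its values are a description. They were -0.22 ± 0.42 with CNP and -0.11 ± 0.63 with vehicle (SD, n = 3 cultures each). With CNP and median centring in place of quantile normalization the difference of Irx5 was -0.58. Irx1 was at 0.05 ± 0.20 with CNP and -0.37 ± 0.20 with vehicle (SE, limma adjusted p = 0.882 and 0.215), and Irx2 at 0.14 ± 0.20 and -0.16 ± 0.20 (0.647 and 0.658). In every one of the 6 cultures the M minus H difference was larger for Irx3 than for Irx5, by 0.84 ± 0.34 (SD, n = 6). The M minus R/P difference of Irx3 minus that of Irx5 was -1.09 ± 0.38 (SD, n = 6), given only with the array of conflicting labels. As both values share the arrays that chose Irx5, they are given with no test.

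**Figure D2:**
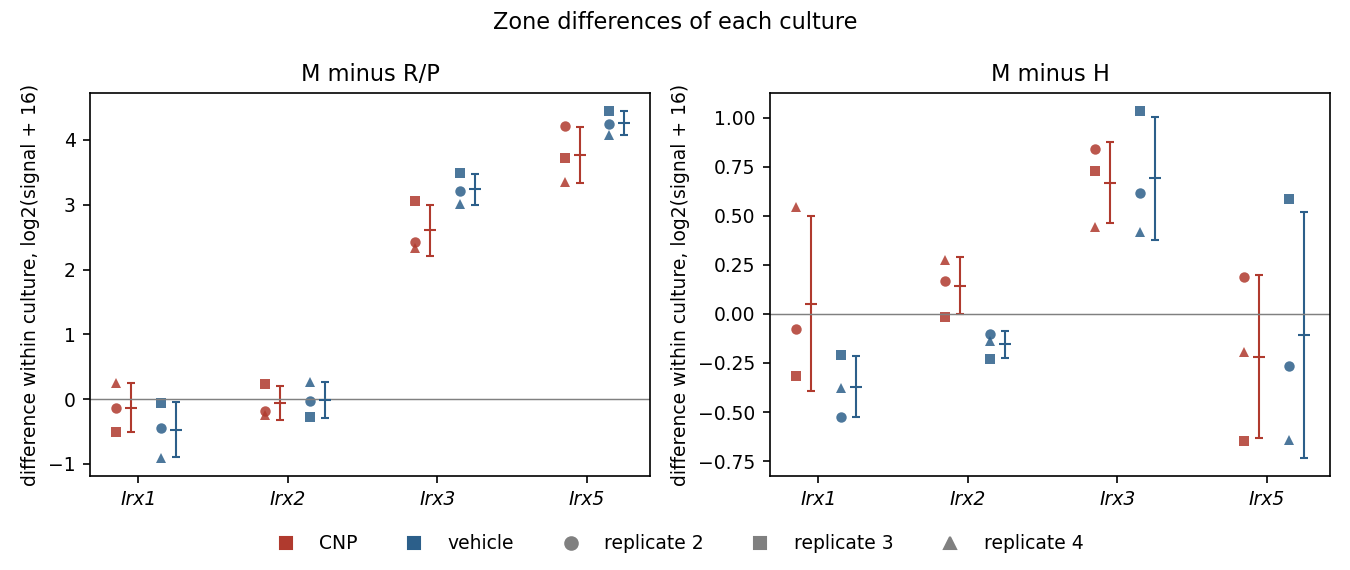
Differences within each culture on the log2(signal + 16) scale, M minus R/P at left and M minus H at right, with a point per culture (CNP left of vehicle) and the mean ± SD of 3 cultures beside it. Irx3 and Irx5 lie above 0 in all 6 cultures in M minus R/P, and only Irx3 does so in M minus H.

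With CNP against vehicle, the comparison the study was built on, none of the paralogues was called in any zone, nor was Irx5 in M. The R/P and H arrays helped to choose Irx5, so its values in those zones and in the mean of zones are a description. In R/P, Irx3 had the lowest unadjusted p: it was 0.49 ± 0.19 higher with CNP (1.41-fold; 95% interval 0.09 to 0.89; unadjusted p = 0.018; limma adjusted p = 0.306). The pairs of arrays with the same number differed by 0.54, 0.36 and 0.58, the pair 3 on the first hybridization day and the pairs 2 and 4 on the second, and the CNP and vehicle arrays overlapped. With the replicate number as a block the limma adjusted p was 0.188, and without the array of conflicting labels the difference was 0.57 (limma adjusted p = 0.41). The 0 of 3 paralogues called stand beside 0.0259% of all probe sets.

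Irx5 in R/P was at 0.45 ± 0.24 (0.40 without the array of conflicting labels), with no test, and the numbered pairs differed by -0.08, 0.48 and 0.95. Irx1 was at 0.08 ± 0.23 (limma adjusted p = 0.931) and Irx2 at 0.23 ± 0.25 (limma adjusted p = 0.759). Without the array of conflicting labels Irx1 was at 0.11 and the sign of Irx2 turned, at -0.02 (limma adjusted p = 0.925 and 0.992); with that array counted as CNP, Irx2 was at -0.20 (limma adjusted p = 0.904). Neither Irx1 nor Irx2 was called, and for Irx1, Irx2 and Irx5 each CNP group overlapped its vehicle group.

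In the hypertrophic zone, where 1.62% of probe sets were called, Irx5 differed by 0.07 ± 0.24, with no test. Irx3 differed by -0.12 ± 0.19 (95% interval -0.51 to 0.28; limma adjusted p = 0.848). The numbered pairs of Irx5 were at -0.56, 0.98 and -0.22, so they pointed in both directions. Irx1 and Irx2 differed by 0.00405 ± 0.23 and -0.11 ± 0.25 (limma adjusted p = 0.996 and 0.893).

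In the mineralized zone, where 0.0037% of probe sets were called, Irx1 was at 0.43 ± 0.23 (unadjusted p = 0.0795; limma adjusted p = 1), Irx2 at 0.19 ± 0.25, Irx3 at -0.14 ± 0.19 and Irx5 at -0.04 ± 0.24 (limma adjusted p = 1 each). The 3 CNP arrays of Irx3 all lay below the 3 vehicle arrays there. Averaged over the zones, with 0.0148% of probe sets called, the 4 members differed by 0.17 ± 0.15 (Irx1), 0.10 ± 0.18 (Irx2), 0.08 ± 0.13 (Irx3) and 0.16 ± 0.14 (Irx5). The limma adjusted p of the paralogues ran from 0.711 to 0.865. Without the array of conflicting labels the mean differences were 0.05 for Irx1, -0.06 for Irx2, whose sign turned, 0.13 for Irx3 and 0.14 for Irx5. The limma adjusted p of the paralogues then ran from 0.858 to 0.949.

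The difference of the CNP response between zones was tested too for the paralogues of Irx5, and 0 of them was called. Arrays that chose Irx5 enter these differences, so its values are a description. For Irx3 the response in H minus that in R/P was -0.61 ± 0.24 (unadjusted p = 0.0247; limma adjusted p = 0.405; 0.167% of probe sets called), and that in M minus that in R/P was -0.63 ± 0.24 (unadjusted p = 0.0208; limma adjusted p = 0.598). Without the array of conflicting labels these were -0.65 and -0.68 (limma adjusted p = 0.468 and 0.712), and for Irx5 -0.34 and -0.45, with no test. The M against R/P contrast had 0 probe sets called in limma (0%), and 2007 at an unadjusted p under 0.05. For M against H, with 0.0666% called, Irx3 was at -0.02 ± 0.24 and Irx5 at -0.11 ± 0.31. For Irx5 the response differed by -0.38 ± 0.31 in H against R/P and by -0.49 ± 0.31 in M against R/P, again with no test.

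**Figure D3:**
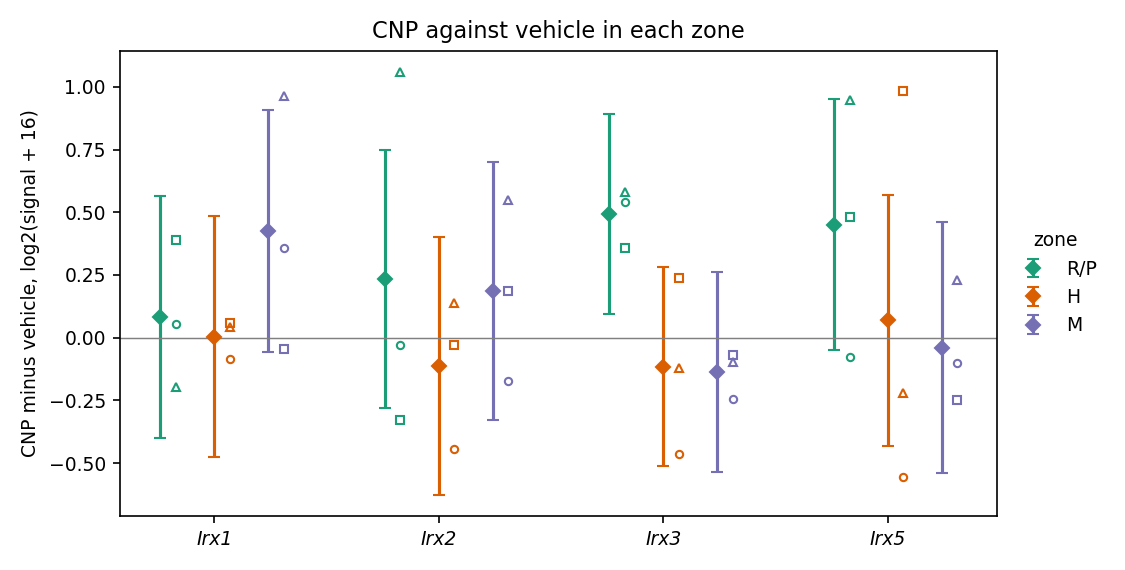
CNP minus vehicle on the log2(signal + 16) scale for each gene in each zone: diamonds and bars are the estimate and 95% interval of the limma fit, and open symbols the differences between arrays of the same number (circle 2, square 3, triangle 4). The interval of Irx3 in R/P (0.09 to 0.89) is the only one that lies wholly above 0, and its limma adjusted p was 0.306. The bars of Irx5 in R/P and H are not read as tests, as those arrays helped to choose it.

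The other Iroquois genes were too dim to be tested. Irx4 had group means of 10.5 to 24.2 and Irx6 of 45.0 to 68.2, with overlap across zones. Crnde, a long noncoding RNA gene next to Irx5, was also below the filter. Its group means were 10.3 (CNP) and 28.4 (vehicle) in R/P, 67.5 and 68.3 in H, and 88.8 and 112.5 in M. Its M minus R/P difference was 2.01 ± 0.38 with CNP and 1.64 ± 0.58 with vehicle (SD, n = 3 cultures each), with no test.

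Of the tested genes around the Irx3-Irx5 locus, Rbl2, Aktip and Fto come before it and Mmp2, Lpcat2 and Slc6a2 after it. Their M minus R/P differences ran from -0.52 to 0.45, against 2.61 to 4.26 for Irx3 and Irx5. That range leaves out the untested Crnde, at 2.01 with CNP and 1.64 with vehicle. It also leaves out H, where Aktip lay above its R/P arrays with no overlap. Aktip was at 228 to 325 in R/P, 591 to 786 in H and 320 to 421 in M. Among the tested neighbours, Fto (0.45 ± 0.17, limma adjusted p = 0.0469) and Lpcat2 (-0.52 ± 0.18, limma adjusted p = 0.0322) passed the test with CNP, and none did with vehicle. In that contrast 36.7% of all probe sets were called with CNP and 30.9% with vehicle. Mmp2, a gelatinase that breaks down matrix, was at 0.20 ± 0.15 with CNP and -0.38 ± 0.15 with vehicle. Against H, Aktip fell (-1.01 with CNP and -0.71 with vehicle) and Mmp2 rose by 0.60 with CNP and 0.48 with vehicle. With CNP Fto also rose against H, by 0.61 (limma adjusted p = 0.0104), beside 0.67 for Irx3, and Lpcat2 fell (-0.96; limma adjusted p = 0.000711). In M against H 32.6% of all probe sets were called with CNP and 23.6% with vehicle. With CNP against vehicle in H, Rbl2, a pocket protein of the cell cycle, fell (-0.99; limma adjusted p = 0.0193) and Lpcat2 rose by 0.76 (limma adjusted p = 0.0428). There 1.62% of all probe sets were called. Around the Irx1-Irx2 locus the 6 neighbours ran from -0.59 to 0.77, and Lpcat1 with CNP was called (0.77 ± 0.21; limma adjusted p = 0.00963). Against H, Lpcat1 rose by 1.07 with CNP and 1.20 with vehicle, Ice1 by 0.51 and 0.44, and 4933416O17Rik by 0.65 with CNP.

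**Figure D4:**
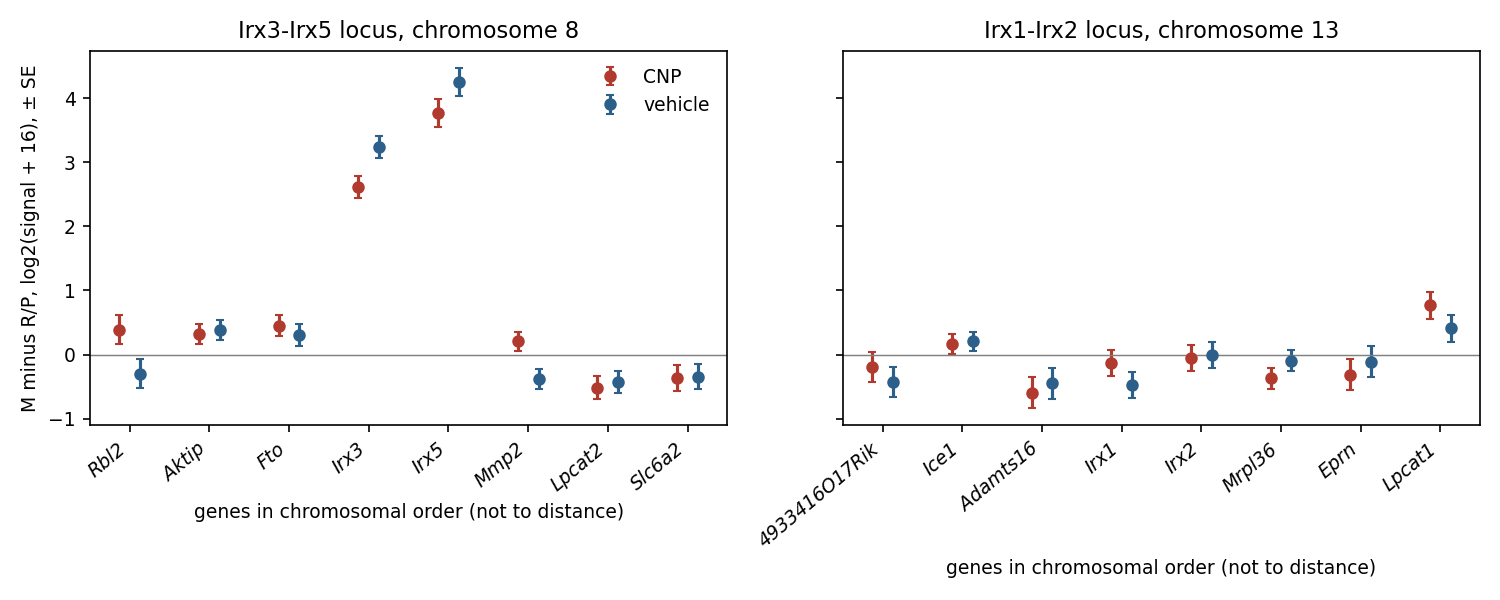
M minus R/P differences ± SE on the log2(signal + 16) scale for the genes at the Irx3-Irx5 locus (left) and the Irx1-Irx2 locus (right) in chromosomal order, CNP left of vehicle. Irx3 and Irx5 stand at 2.61 to 4.26 and their tested neighbours between -0.52 and 0.45. Crnde, next to Irx5, was below the filter and is not shown (2.01 with CNP and 1.64 with vehicle).

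Among genes represented by their brightest probe set, those most like Irx5 over the 18 arrays were Pdk4 (Pearson r = 0.989), a kinase that restrains pyruvate oxidation, Ncf1 (0.984), a subunit of the phagocyte NADPH oxidase, Klhl30 (0.980), Dapk2 (0.978), a death-associated kinase, and Adgrf5 (0.974), an adhesion receptor. Irx3 came after 28 of 13246 genes at r = 0.952, Irx2 was at -0.02 and Irx1 at -0.35. Most like Irx3 were Hpgd (0.990), which inactivates prostaglandins, Epas1 (0.984), the hypoxia factor HIF-2 alpha, Ifitm5 (0.977), a bone membrane protein, Bmp8a (0.973) and Ncf1 (0.973). These correlations run over arrays of 3 zones and follow the zone steps, so they are a description with no p. With group means removed, Irx3 and Irx5 correlated at 0.34. The genes then nearest to Irx5 were Ccm2 (0.858), Rps2 (0.855), Raph1 (0.844), Plch2 (0.828) and Ppp2ca (0.825).

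**Figure D5:**
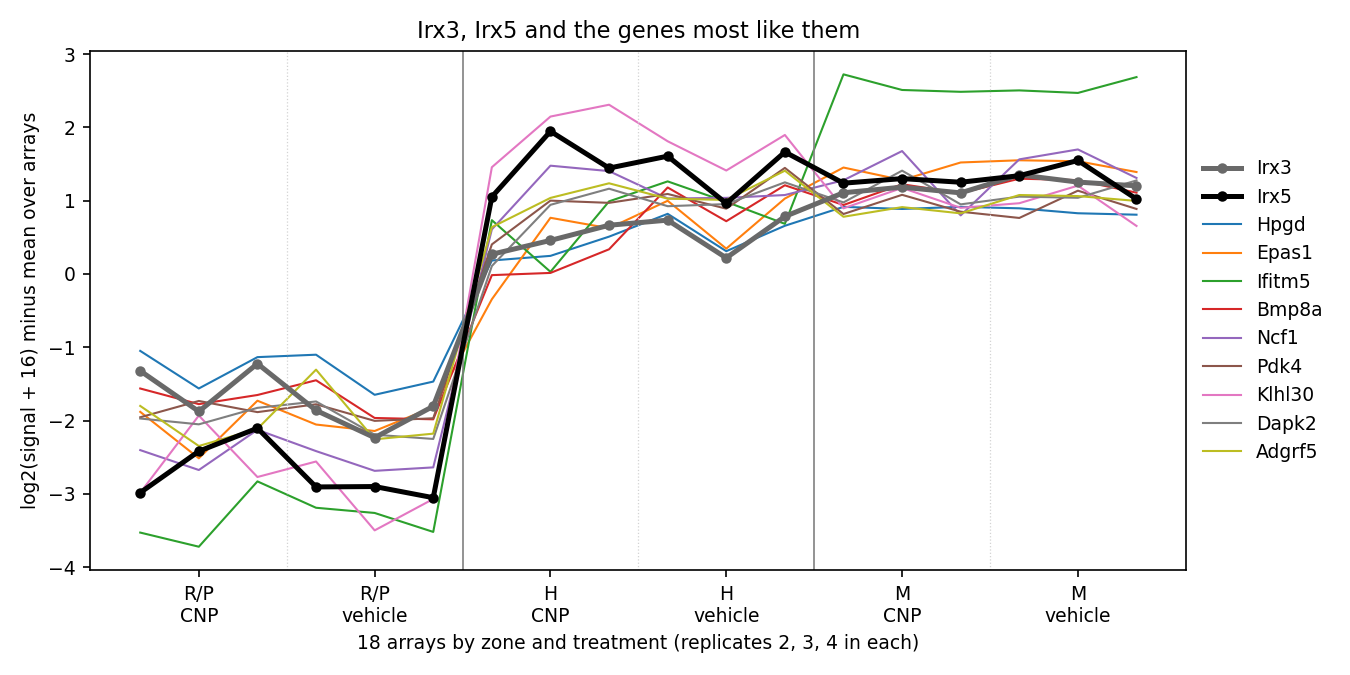
Irx3 and Irx5 with the genes most like them, as log2(signal + 16) minus each gene's mean over 18 arrays, by zone and treatment. All step up between R/P and H, and Irx3, Epas1 and Ifitm5 step up again in M with no overlap of H and M arrays.

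For Irx1 the nearest genes were Cd8a (0.844), the T-cell co-receptor chain, Hspg2 (0.801), the heparan sulfate proteoglycan perlecan, Map2k4 (0.750), Dhrs2 (0.736) and Gm5891 (0.731), and for Irx2 Nat8f2 (0.794), Prss29 (0.781), Vps13c (0.727), Krt6a (0.718) and 4930571B16Rik (0.694). No likeness for either reached that of Irx3 and Irx5, and both span little signal range.

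Other TALE genes were compared with the members, using a list chosen with results of these data known. Of 13 with a probe set, 9 were tested: 0 rose and 2 fell in M against R/P in both treatments, with medians of -0.24 with CNP and -0.14 with vehicle against -0.03 and -0.05 over all probe sets; of all probe sets 18.8% and 15.7% fell. Mkx, a tendon factor, was at -2.27 with CNP and -2.35 with vehicle, and Pknox2 at -0.75 and -1.56. Against H, Mkx alone in that list fell, at -1.77 with CNP and -0.99 with vehicle, where 16.7% and 12.1% of all probe sets fell.

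Of 7 genes tied to Irx3 or Irx5 in other tissues, 3 were tested, and in M against R/P 2 rose and 1 fell in both treatments, where 17.9% of all probe sets rose and 18.8% fell with CNP and 15.1% and 15.7% with vehicle. Cxcl12, a chemokine of marrow stroma, rose in M against R/P by 2.22 with CNP and 2.24 with vehicle, and against H by 4.52 and 3.51. With CNP in H it fell by 0.94 (limma adjusted p = 0.0334). In the same arrays the 8 perichondrium, tendon and fibroblast markers summed to 9925 to 12119 with CNP, against 16387 to 17655 with vehicle, and 4 of the 8 fell. The 7 osteoclast markers summed to 2183 to 4200 with CNP, against 6340 to 7047 with vehicle, and 1 of the 6 tested fell. Of all probe sets 1.1% fell with CNP in H. The part of both cell types in the fall of Cxcl12 was not tested. Gja1, which encodes connexin 43, rose in M against R/P by 0.73 in both treatments, and Trps1, a GATA-type repressor of chondrocytes, fell (-1.31 with CNP and -1.52 with vehicle).

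Of 8 hedgehog genes tested, 0 rose in M against R/P and 3 fell with CNP and 4 with vehicle, where 18.8% and 15.7% of all probe sets fell. Gli3, a mediator of the pathway, fell (-1.06 with CNP and -0.95 with vehicle), and so did Smo, its transducer (-0.75 and -0.87). Ihh, the ligand made by prehypertrophic chondrocytes, was the 1 that fell in M against H (-2.36 with CNP and -2.55 with vehicle), while Gli2 and Sufu rose there with CNP, by 0.76 and 0.75 (limma adjusted p = 0.00444 and 0.00303). Of 9 WNT target genes tested, 4 rose and 1 fell with CNP, and 3 rose and 2 fell with vehicle, in M against R/P. Of all probe sets 17.9% rose and 18.8% fell with CNP, and 15.1% and 15.7% with vehicle. Against H, 5 rose and 1 fell with CNP, and 2 rose and 1 fell with vehicle. Of all probe sets 15.9% rose and 16.7% fell there with CNP, and 11.6% and 12.1% with vehicle. In M against R/P, Dkk1, a secreted WNT antagonist, rose by 4.21 with CNP and 4.40 with vehicle, and Nkd2 by 1.45 and 1.64.

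Of 11 hypertrophic chondrocyte genes tested, 4 rose and 1 fell in M against R/P in both treatments, where 17.9% of all probe sets rose and 18.8% fell with CNP and 15.1% and 15.7% with vehicle. Mmp13, a collagenase, rose by 3.04 with CNP and 2.49 with vehicle, and Pth1r, the receptor for parathyroid hormone, by 2.33 and 1.51. Against H, 4 of the 11 fell in both treatments and 1, Dlx5, rose with CNP (0.70), where 16.7% of all probe sets fell with CNP and 12.1% with vehicle. Among those that fell were Col10a1, the collagen of hypertrophic cartilage, at -2.80 with CNP and -3.76 with vehicle, and Foxa3 at -2.30 and -1.63. In the same contrast Irx5 stood at -0.22 with CNP and -0.11 with vehicle, and Irx3 rose by 0.67 and 0.69.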

How the data were processed

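Gene expression was measured on 18 Affymetrix MOE430_2 arrays. Per the series design, the submitters used GeneSpring; the summarising of probes was not given in the sources used here. Deposited by the authors was a linear signal intensity, from 0 to 20519, not brought to one level between arrays (trimmed mean 158 to 512). From it 64 control probe sets were left out, intensities were quantile-normalized, and tests were run on log2(signal + 16) after dropping the lowest 40% of probe sets by mean (signal below 63.5). Limma 3.58.1 in R 4.3.3 (lmFit, eBayes with trend, two-sided) was used, with Benjamini-Hochberg adjustment over 27022 probe sets; called means below 0.05 after adjustment. CNP was set against vehicle in one fit of all arrays, the mean of zones on 6 culture means, and zones and differences of the CNP response with culture as a block. Nothing in the labels beyond the series design's wording says how far the trials are independent. The p-values for the mean of zones measure the spread between these cultures. For zones and CNP response differences they measure how zone differences vary between cultures. For CNP in a zone they measure the spread of arrays around group means, with arrays of a culture taken as independent. The number of arrays limits the precision. The fits were tested on simulated data.

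Names come from the platform annotation: 34945 probe sets have 1 symbol, 932 several and 9160 none, and a gene is represented by its brightest probe set with 1 symbol. The members are all probe sets with exactly those symbols; likeness names the 5 genes with the highest r, neighbours the 3 nearest tested genes on each side, and lists up to 2 called members per contrast. Members and lists were chosen with earlier results of these data known. Samples were grouped by title. Arrays of the same number deviated together in R/P (r = 0.187, 0.378 and 0.154) and in culture means (0.173, 0.337 and 0.213), so the numbers pair there; in H (-0.02, 0.09 and 0.12) and M (0.137, 0.118 and 0.062) not every pair did. Promoters are RefSeq's, found for 2 of 4 members. Alternatives changed the scaling, pseudocount, filter, blocks and arrays included.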

Additional observations from a re-analysis of the deposited data

How the results depend on the processing

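The rise of Irx3 in M against R/P kept direction and call under all 19 alternatives run, from 2.38 to 2.81 (CNP) and 2.92 to 3.85 (vehicle); the difference of Irx5, described with no test, ran from 3.34 to 3.97 (CNP) and 3.78 to 4.83 (vehicle). With each replicate left out in turn, the members called in M against H numbered 0 to 1 with CNP and 0 to 1 with vehicle; Irx3 lost its call without replicate 2 (CNP, 0.58, limma adjusted p = 0.0779) and without replicate 3 (vehicle, 0.52, limma adjusted p = 0.107), where fewer arrays were fitted. With median centring Irx3 kept its call in M against H with CNP (0.49), and Irx5, described with no test, was at -0.58. The cause of that shift was not tested. No paralogue was called for CNP against vehicle under any alternative run, and the limma adjusted p of Irx3 in R/P ran from 0.0657 to 1. The replicate block left every paralogue's call as it was (Irx3 in R/P 0.49, limma adjusted p = 0.188), while the probe sets called in R/P went to 59, against 7 without it. Over alternatives, all probe sets called for CNP numbered 0 to 870 in R/P, 71 to 674 in H, 0 to 4 in M and 0 to 128 over the mean of zones, where 7, 438, 1 and 4 were called. Without normalization the median difference of all probe sets was 0.45 (CNP) and 0.43 (vehicle) in M against H and 0.23 and 0.58 in M against R/P. After quantile normalization these medians were -0.01, -0.03, -0.03 and -0.05. Leaving out the 4 arrays with an aborted scanner log was chosen after seeing the data and changed no member's call. Counting the array of conflicting labels as CNP was not run for zones, CNP response differences or the mean of zones, since 1 culture cannot carry both treatments, and the fluidics run was not fitted for the mean of zones.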
